A study of Homo sapiens with 13 samples.

Results

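Genes of ribosome biogenesis and of the nucleolus were followed by RNA sequencing in AC16 cells: 38 genes were taken by name from a fixed list, matched through their Ensembl identifiers, out of 63241 gene identifiers per library. The list holds MYC, 4 genes of RNA polymerase I transcription, 3 of box C/D and 4 of box H/ACA ribonucleoproteins, 6 abundant nucleolar proteins, 12 factors of the small subunit and 8 of the large subunit. All 38 passed the filter on low counts, as did 16756 genes in all. AC16 is a human line made by fusing adult ventricular cardiomyocytes with transformed fibroblasts. Poly-A selected RNA was sequenced in 13 libraries: 3 preconditioning+FCCP, 4 preconditioning, 3 FCCP and 3 control libraries. Preconditioning is named in the study's title as optogenetic and mitochondrial, and its design text names a construct, mOpto. FCCP is a protonophore that collapses the proton gradient across the inner mitochondrial membrane. All 4 groups share the cell line, the cell type given as myocyte and the genotype given as wildtype. Whether mOpto was present, or light given, in the control and FCCP groups is not in the labels, nor is the dose or duration of either treatment, so each contrast compares labelled groups. Of 15 cardiomyocyte markers 5 passed the count filter and TNNT2 was at 0 in every library, whereas 10 of 10 fibroblast markers passed.

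Ribosomes are made in the nucleolus, where RNA polymerase I transcribes a precursor rRNA that is modified by small nucleolar ribonucleoproteins and cut and folded by assembly factors of the small and large subunits. MYC, a transcription factor, is known to raise the transcription of many of these genes through its binding to E-box sequences, and the pathway is among the most costly that a growing cell runs. In bulk RNA a change in the cells present and a change in RNA per cell cannot be told apart.

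The core E-box bound by MYC and related factors, CACGTG, reads the same on both strands. It was searched in RefSeq promoters (GRCh38.p14) from 250 bases before to 20 bases after each annotated start, a window of 270 bases. It was present in 6.78% of all 35116 promoter entries and in 28.2% of the 39 entries of the members. Of 38 members 31 had an entry, and 11 of these, or 35.5%, had the motif in at least 1 window: EBNA1BP2, WDR43, RRP9, GNL3, DDX21, NAT10, UTP20, NOP10, UTP4, FBL and PES1. A match describes the letters in this window and is no measurement of binding. The 4 windows that follow belong to members that were called between groups, 3 with the motif (in capitals) and 1 without it. In UTP20 the motif began at position -10 and in FBL at position 7 relative to the annotated start, and NOP10 had 2 copies.
UTP20, small subunit factor (chr12:101279855-101280124, plus strand): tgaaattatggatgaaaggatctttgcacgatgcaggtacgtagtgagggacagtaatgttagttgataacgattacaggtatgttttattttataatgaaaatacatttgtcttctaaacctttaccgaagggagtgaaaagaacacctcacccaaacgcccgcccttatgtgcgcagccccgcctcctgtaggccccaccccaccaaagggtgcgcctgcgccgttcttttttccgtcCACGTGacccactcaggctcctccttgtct
NOP10, box H/ACA protein (chr15:34343117-34343386, minus strand): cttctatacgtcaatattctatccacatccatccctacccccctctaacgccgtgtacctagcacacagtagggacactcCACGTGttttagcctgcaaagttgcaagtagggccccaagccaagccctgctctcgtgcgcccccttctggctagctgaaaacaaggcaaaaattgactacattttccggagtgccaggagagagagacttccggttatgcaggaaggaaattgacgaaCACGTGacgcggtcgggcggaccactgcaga
FBL, box C/D methyltransferase (chr19:39846360-39846629, minus strand): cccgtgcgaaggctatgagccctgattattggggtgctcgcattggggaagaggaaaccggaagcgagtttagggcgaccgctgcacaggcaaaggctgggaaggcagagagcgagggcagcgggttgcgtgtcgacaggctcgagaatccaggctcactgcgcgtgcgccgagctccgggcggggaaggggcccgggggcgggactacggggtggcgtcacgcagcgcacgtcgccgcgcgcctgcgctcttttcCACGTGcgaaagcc
WDR75, small subunit factor, no motif (chr2:189441224-189441493, plus strand): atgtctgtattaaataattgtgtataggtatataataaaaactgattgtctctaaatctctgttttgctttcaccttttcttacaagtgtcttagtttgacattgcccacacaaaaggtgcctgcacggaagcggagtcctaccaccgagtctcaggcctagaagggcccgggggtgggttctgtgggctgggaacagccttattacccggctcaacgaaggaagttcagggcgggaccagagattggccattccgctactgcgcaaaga

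Library sizes were 14970803 to 20636229 gene counts, and levels are given as CPM (read counts scaled to a common library size, with TMM factors). Multiply aligned reads made up 7.13% to 11.5% of the total in 6 libraries (control 1 and 2, the 3 FCCP libraries and preconditioning+FCCP 3) and 3.16% to 5.22% in the other 7, so this set moves with the groups. Summed fibroblast markers were 1581 to 3175 CPM in preconditioning+FCCP libraries, 7121 to 7662 in preconditioning, 7549 to 9608 in FCCP and 5796 to 12816 in control libraries; their part in the results for the members was not tested. Labels do not say that libraries came from separate cultures, so the p-values rest on a spread among libraries that could be technical.

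The members' levels differed between libraries of one group. The median of the 38 members, as the log2 deviation of each from its mean over all libraries, was -0.13, -0.05 and 0.31 in preconditioning+FCCP 1, 2 and 3. It was 0.03, 0.09, 0.31 and -0.09 in preconditioning 1 to 4, 0.08, -0.48 and -0.27 in FCCP 1 to 3, and -0.31, -0.16 and 0.55 in control 1 to 3. The same median over all genes tested lay between -0.02 and 0.04 in every library. Control 3 thus stood above the other control libraries, and held the highest level of its group for 33 of 38 members, 86.8%, beside 41.7% of all genes. Preconditioning+FCCP 3 and FCCP 1 each held the highest level for 30 members, 78.9%, beside 41.5% and 35.8% of all genes, and preconditioning 3 for 29, or 76.3% beside 34.0%. Preconditioning+FCCP 3 and FCCP 1 also had the highest mitochondrially encoded share of counts in their groups, 6.42% and 6.49%, while control 3 and preconditioning 3 had the lowest in theirs, 3.00% and 1.00%. The part of this share in the members' levels was not tested. The spread was widest in the control group, where the median coefficient of variation of a member was 38.2% beside 27.4% for all genes. It was 19.5% against 23.6% for all genes in preconditioning+FCCP, 11.5% against 13.5% in preconditioning and 22.3% against 24.9% in FCCP libraries.

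**Figure D1:**
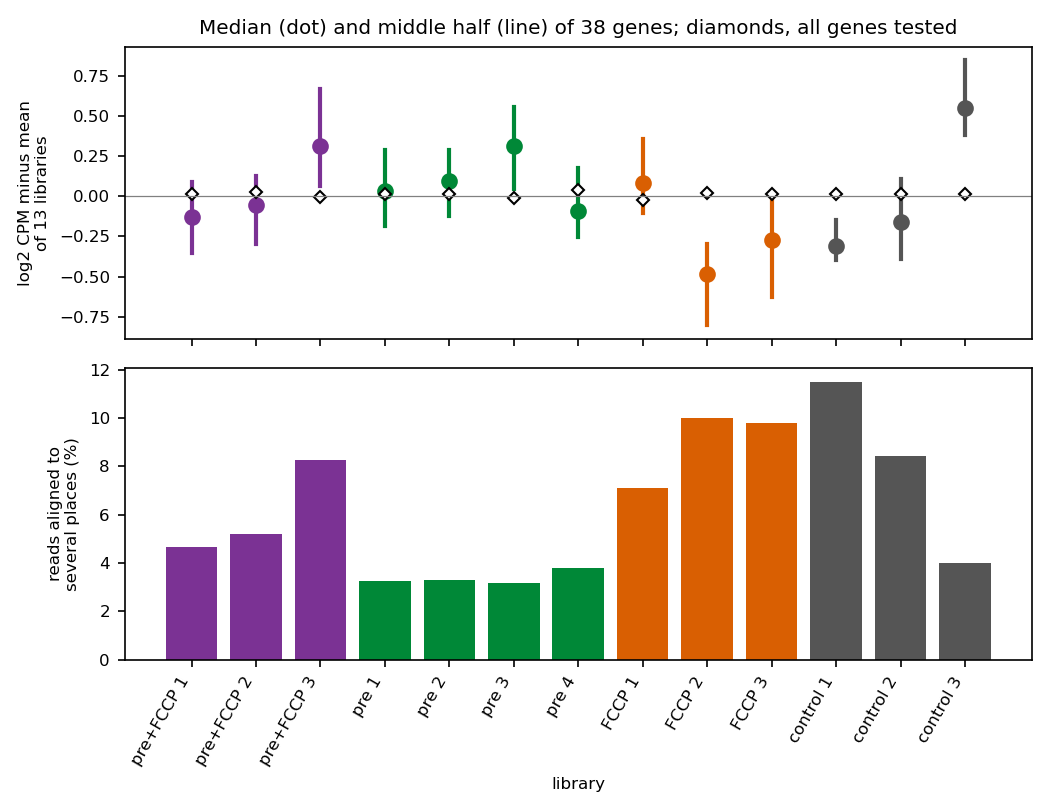
Median log2 deviation of the 38 members (dots) and of all genes tested from each gene's mean over the 13 libraries, by library (pre stands for preconditioning); lines span the interquartile range of the members, diamonds show all genes, and the lower panel gives the percentage of multiply aligned reads. Control 3, at 0.55, and FCCP 2, at -0.48, lie at the ends, while the medians of all genes stay between -0.02 and 0.04.

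Per kilobase of exon, NPM1, a histone chaperone and nucleolar scaffold, had the highest mean level of the members, 413 CPM per kb over 13 libraries. NOP10, the smallest protein of the box H/ACA particle, followed with 171, NCL (nucleolin) with 135 and FBL (fibrillarin) with 70.1 CPM per kb. The lowest were POLR1A with 4.07, DDX10 with 3.83 and NOP2 with 0.153 CPM per kb. NOP2, an rRNA methyltransferase of the large subunit, had only 4 to 40 reads in a library. In GENCODE 29, 54.4% of its exon length is shared with another gene on the same strand, which had 0 reads in all libraries, and its level is uncertain. NPM1 has 49 named pseudogenes, and RRN3 has 4, and their reads could be split among them. Levels of NHP2, NOB1, EBNA1BP2, NOP16, NOP14 and RRS1 are uncertain to a smaller degree, since 11.4% to 27.4% of their exon length lies under another gene, mostly on the opposite strand. Over all libraries the highest level of a member was 12.3-fold its lowest for RRS1, 7.58-fold for MYC and 1.81-fold for UBTF and NCL.

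**Figure D2:**
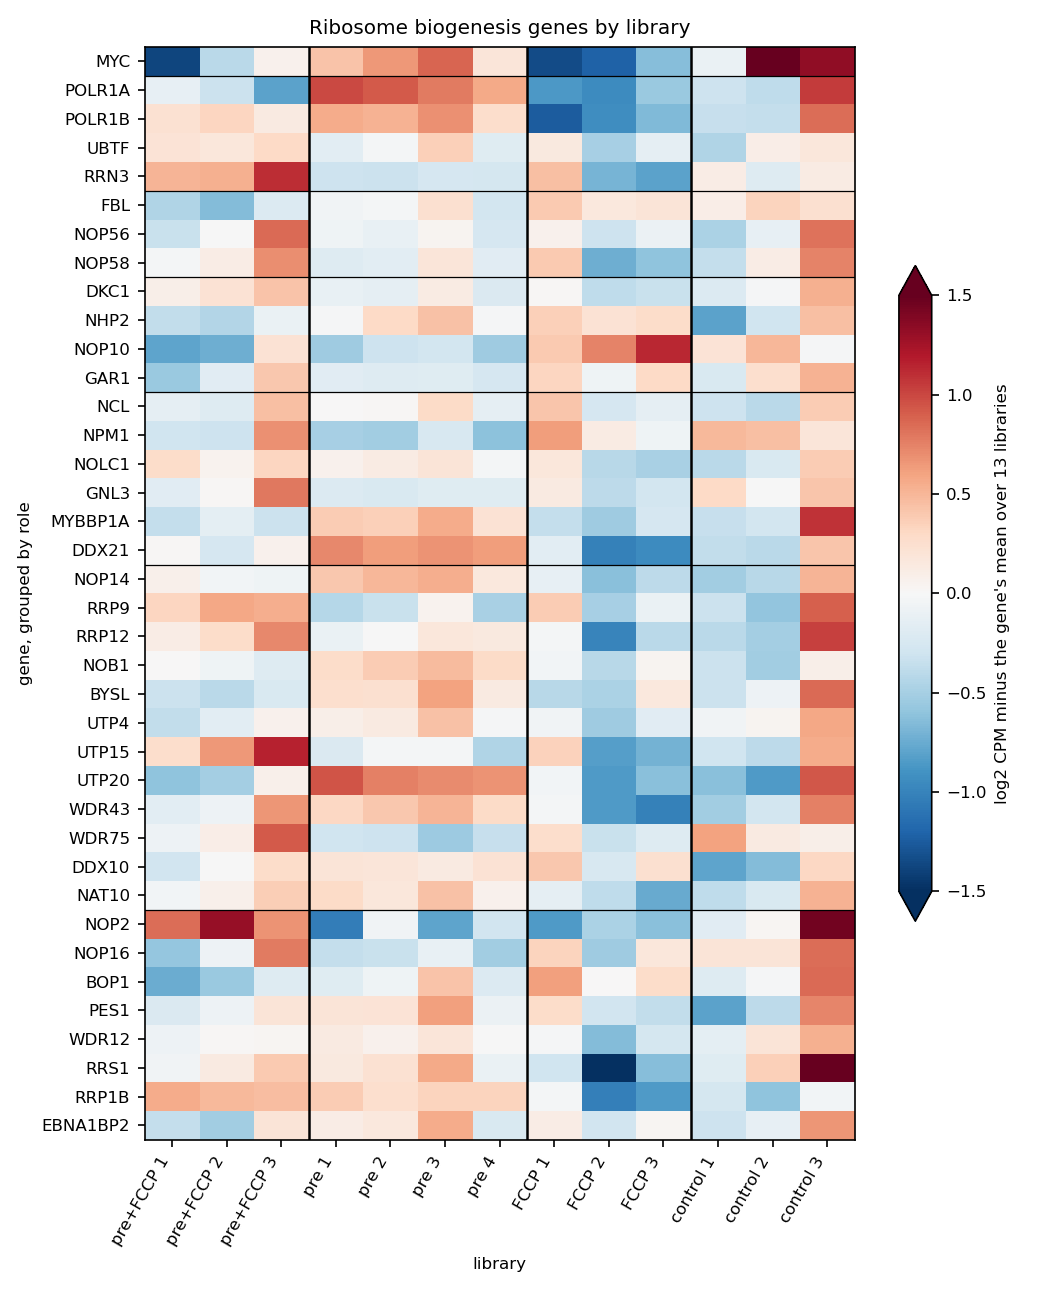
Each member's log2 CPM minus its mean over the 13 libraries (colour), with members in rows by role and libraries in columns from preconditioning+FCCP to control. Control 3 is high for most rows and FCCP 2 low, and MYC is low in all 3 FCCP libraries.

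MYC was lower in FCCP cells than in control cells, and with it POLR1B and RRS1, while no member was called higher. MYC stood at 11.3, 22.3 and 30.8 CPM in preconditioning+FCCP libraries, 39.6, 46.2, 54.1 and 33.4 CPM in preconditioning, 11.5, 12.6 and 18.9 CPM in FCCP and 27.5, 85.5 and 74.1 CPM in control libraries. Every FCCP library lay below every control library, and control 1 lay far below the other control libraries. MYC averaged 14.4 ± 3.99 CPM in FCCP and 62.4 ± 30.7 CPM in control libraries (SD, n = 3 each), a log2 change of -2.12 ± 0.40 (SE; edgeR quasi-likelihood test, Benjamini-Hochberg adjusted p = 0.0185). POLR1B, the second-largest subunit of RNA polymerase I, stood at 30.1, 32.1 and 28.1 CPM in preconditioning+FCCP libraries, 37.8, 36.9, 41.4 and 30.9 CPM in preconditioning, 10.8, 13.4 and 16.2 CPM in FCCP and 20.2, 19.98 and 46.1 CPM in control libraries. The FCCP libraries were the lowest of all 13. Its log2 change in FCCP against control was -1.09 ± 0.28 (edgeR adjusted p = 0.0467). RRS1, which helps to bring the 5S ribonucleoprotein into the large subunit precursor, was at 17.1, 4.94 and 13.5 CPM in FCCP and 18.7, 27.2 and 60.6 CPM in control libraries, without overlap. It fell by 1.58 ± 0.42 on the log2 scale (edgeR adjusted p = 0.0493).

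In FCCP against control 3 of 38 members, 7.89%, were called, all lower, beside 3.52% of all genes (1.60% higher, 1.92% lower). With library totals in place of TMM scaling the split over all genes was 229 higher and 166 lower, against 268 higher and 322 lower with TMM, and 1 member was called, lower. At an unadjusted p under 0.05, 1 member was higher and 9 were lower, and DESeq2 and limma-voom also called 0 higher, with 4 and 1 lower. Of all genes DESeq2 called more than edgeR and limma-voom fewer, with the counts in the closing section. No count of all genes is given for the unadjusted threshold. The median change of the 38 members was -0.34, beside -0.04 for all genes, and 31 of the 38 lay below 0. This median depends on the libraries used. It was -0.06 without control 3, and 0.01 over 37 members within control 1 and 2 and the FCCP libraries, all of high multiple alignment. Without control 3, FCCP 1 and preconditioning+FCCP 3 together it was -0.27. It ran from -0.59 to 0.01 over all alternatives. By role the median was -0.66 for RNA polymerase I transcription, -0.39 for the small subunit, -0.34 for the large subunit, -0.29 for abundant nucleolar proteins and -0.28 for box C/D proteins, and 0.20 for box H/ACA proteins. POLR1A, the largest polymerase subunit, lay lower in every FCCP library (26.7, 25.1 and 32.9 CPM) than in any control library (39.2, 37.1 and 100.4 CPM) but did not pass the test, with -1.06 ± 0.31 and an edgeR adjusted p of 0.0721. FCCP and control libraries overlapped for 33 of the 38 members, and no such count over all genes is given here.

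The call of MYC ended without FCCP 2, at a change of -2.05, and those of POLR1B and RRS1 each ended without control 3 (-0.60 and -0.97), FCCP 2 or 3, any preconditioning library or preconditioning+FCCP 1 or 2, and also without FCCP 1 for POLR1B and control 2 for RRS1. The count of members called was 5 without FCCP 1, 0 without FCCP 2 and 1 without FCCP 3, without any preconditioning library or without preconditioning+FCCP 1 or 2. It was also 3 without control 3, but with 2 of these higher and 1 lower. Over single libraries left out, 142 to 893 of all genes were called. Within control 1 and 2 and the FCCP libraries, all of high multiple alignment, no member of 37 was called by edgeR, beside 0.164% of all genes. At an unadjusted p under 0.05 in that edgeR fit, 2 members were higher and 1 was lower. The changes of MYC, POLR1B and RRS1 there were -1.95, -0.55 and -0.92. Without control 3, FCCP 1 and preconditioning+FCCP 3 together, 14 members were called (3 higher, 11 lower), beside 18.1% of all genes.

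Preconditioned cells differed from control cells in 5 members, beside 23.6% of all genes called, and of these 5 DDX21, RRP1B and NOB1 rose and NPM1 and WDR75 fell. DDX21, an RNA helicase of rRNA transcription and processing, was at 201.3, 188.6, 195.0 and 189.4 CPM in preconditioning and 95.01, 92.7 and 163.2 CPM in control libraries. The groups did not overlap, and the preconditioning libraries lay close together while control 3 stood above the other controls. The change was 0.73 ± 0.23 (edgeR adjusted p = 0.0324). RRP1B, a large subunit factor, was at 154.8, 141.7, 149.9 and 149.7 CPM in preconditioning against 99.1, 78.2 and 115.9 CPM in control libraries, a change of 0.61 ± 0.21 (edgeR adjusted p = 0.0482). NOB1, the endonuclease that makes the 3' end of 18S rRNA, rose by 0.59 ± 0.18 (edgeR adjusted p = 0.029). NPM1 was at 1067, 1053, 1274 and 984.1 CPM in preconditioning and 2114, 2059 and 1708 CPM in control libraries. All 4 preconditioning libraries lay below the controls, with a change of -0.84 ± 0.25 (edgeR adjusted p = 0.0252). WDR75, a small subunit factor needed for pre-rRNA transcription, fell by 0.67 ± 0.23 on the log2 scale (edgeR adjusted p = 0.045). MYC averaged 43.3 ± 8.89 CPM in preconditioning (SD, n = 4) and 62.4 ± 30.7 CPM in control libraries (n = 3), and the change of -0.53 ± 0.35 did not pass (edgeR adjusted p = 0.289).

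These 5 of 38 members were 13.2%, a smaller share than the 23.6% of all genes called in preconditioning against control (10.5% higher, 13.0% lower). This order was not the same in every fit. Without control 3, FCCP 1 and preconditioning+FCCP 3, 17 of 38 members were called higher and 5 lower, a larger share than the 48.9% of all genes. Those libraries held the highest level of their group for 33, 30 and 30 members. That fit thus drops libraries that stand out by the members' own levels, 1 from every group but preconditioning, and cannot decide the order. With all libraries the median change was -0.09 for the members and -0.02 for all genes, with 18 members above 0 and 20 below. With library totals in place of TMM the member median was 0.01, so its sign depends on the scaling, and 3 members were called higher and 1 lower, while all genes split into 2025 higher and 1644 lower, against 1765 and 2185 with TMM. That scaling moved the median of all genes by 0.11. Box C/D members all lay below 0, between -0.31 and -0.25, and POLR1A and POLR1B above it, at 0.54 ± 0.29 and 0.35 ± 0.26, and none of these passed the test.

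Each of the 5 calls ended without at least 1 library. That of NPM1 ended without control 1 or 2 or preconditioning 1, 2 or 4, and those of DDX21 and NOB1 without control 1 or 2 or any preconditioning library. WDR75 was lost without any library of these groups other than control 3, and also without FCCP 2, FCCP 3 or preconditioning+FCCP 2. RRP1B was lost without any library of these groups other than control 3, and also without FCCP 3 or any preconditioning+FCCP library. The count was 0 without control 1 or 2 or preconditioning 1, 2 or 4, 1 without preconditioning 3, 3 without FCCP 3 or preconditioning+FCCP 2, and 15 without control 3. Over single libraries left out, 1506 to 6057 of all genes were called. A term for the library set left 0 members called by edgeR (1 higher and 2 lower at an unadjusted p under 0.05) and took the changes of NPM1, WDR75 and NOB1 to -0.42, -0.26 and 0.38. Neither set held 2 libraries of both groups, so no value within a set was computed. Without control 3, FCCP 1 and preconditioning+FCCP 3, 22 members were called (17 higher, 5 lower), beside 48.9% of all genes, with UTP20 at 1.51, POLR1A at 1.16 and DDX21 at 1.03.

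**Figure D3:**
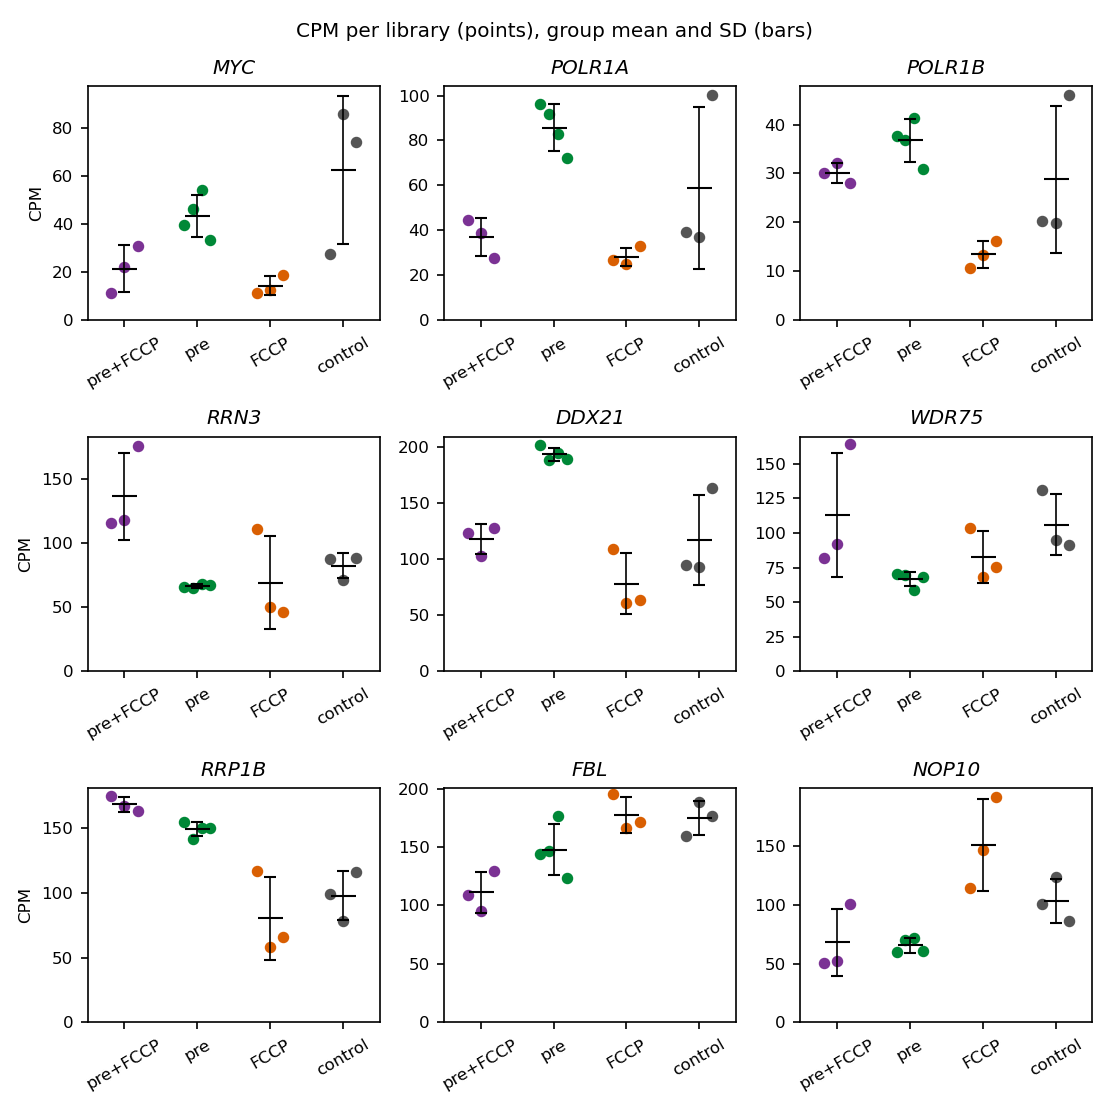
CPM of named members in each library (points) with the group mean and SD (bars), from preconditioning+FCCP on the left to control on the right. POLR1B is lowest in FCCP libraries, RRP1B is high in both preconditioned groups, and control 3 lies above the other controls for POLR1A, POLR1B and DDX21.

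Preconditioned cells under FCCP, set against cells under FCCP alone, had more RNA of RRP1B and of the RNA polymerase I genes POLR1B and RRN3, and less of NOP10 and FBL, components of small nucleolar ribonucleoproteins. RRP1B stood at 174.7, 167.0 and 163.3 CPM in preconditioning+FCCP libraries and 116.9, 58.2 and 65.9 CPM in FCCP libraries, a change of 1.07 ± 0.23 (edgeR adjusted p = 0.0026). POLR1B was also above its FCCP values in every preconditioning+FCCP library, at 30.1 ± 1.99 CPM in preconditioning+FCCP and 13.5 ± 2.73 CPM in FCCP libraries (SD, n = 3 each). Its change was 1.16 ± 0.28 (edgeR adjusted p = 0.006). RRN3, the initiation factor that brings RNA polymerase I to the rDNA promoter, was at 115.9, 117.6 and 175.4 CPM in preconditioning+FCCP, 65.3, 64.7, 68.2 and 67.3 CPM in preconditioning, 111.2, 50.02 and 46.3 CPM in FCCP and 87.5, 70.9 and 88.5 CPM in control libraries. The 3 preconditioning+FCCP libraries were the highest of all 13, and FCCP 1 stood apart from the other FCCP libraries. The change against FCCP was 0.98 ± 0.27 (edgeR adjusted p = 0.0123). NOP2 was also called higher (1.89 ± 0.60, edgeR adjusted p = 0.0224), at 1.02 to 1.64 CPM in preconditioning+FCCP and 0.278 to 0.395 CPM in FCCP libraries.

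NOP10 was lower in preconditioning+FCCP libraries, with 50.6, 52.4 and 101.1 CPM, than in FCCP libraries, with 114.3, 146.8 and 192.1 CPM. The groups did not overlap, although preconditioning+FCCP 3 came close to FCCP 1. The change was -1.15 ± 0.26 (edgeR adjusted p = 0.00363). FBL, the methyltransferase of box C/D particles, was at 109.1, 94.97 and 129.6 CPM in preconditioning+FCCP, 143.9, 146.7, 176.2 and 123.2 CPM in preconditioning, 195.4, 166.5 and 171.0 CPM in FCCP and 159.3, 188.6 and 176.7 CPM in control libraries. It was lower in each preconditioning+FCCP library than in any FCCP library, with a change of -0.68 ± 0.17 (edgeR adjusted p = 0.00816). BOP1, which joins PES1 and WDR12 in a complex of the large subunit, fell by 0.80 ± 0.27 on the log2 scale (edgeR adjusted p = 0.0293). UTP15, a small subunit factor, was called higher (1.03 ± 0.33, edgeR adjusted p = 0.023), with 39.2 CPM in preconditioning+FCCP 1 below 41.6 CPM in FCCP 1. MYC averaged 21.5 ± 9.80 CPM in preconditioning+FCCP and 14.4 ± 3.99 CPM in FCCP libraries (SD, n = 3 each), and its change of 0.58 ± 0.39 did not pass (edgeR adjusted p = 0.253).

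The 8 of 38 members called, 21.1%, stood beside 35.7% of all genes in preconditioning+FCCP against FCCP (17.9% higher, 17.7% lower); 5 members rose and 3 fell. The median change of the members was 0.37 beside 0.01 for all genes, and 29 of the 38 lay above 0. It was 0.69 for RNA polymerase I transcription, 0.40 for the small subunit, 0.36 for box C/D proteins and -0.42 for box H/ACA proteins. With library totals in place of TMM, 15 members were called higher and 2 lower, all genes split into 3981 higher and 2229 lower, against 3007 and 2969 with TMM, and the median of all genes moved by 0.18. All 3 preconditioning+FCCP libraries lay above all FCCP libraries for 10 members and below them for 4. No such count over all genes is given here, so these are not read as particular to the members.

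The calls of RRP1B, POLR1B, NOP10 and FBL held without each library in turn. That of RRN3 ended without FCCP 2, FCCP 3 or preconditioning+FCCP 3 (0.76, 0.73 and 0.73). UTP15 was lost without FCCP 2 or 3 or preconditioning+FCCP 2 or 3, BOP1 without FCCP 1 or 3 or preconditioning+FCCP 1 or 2, and NOP2 without any FCCP library or preconditioning+FCCP 2. The count of members called was 15 without control 3, 14 without FCCP 1, 5 without FCCP 2 or preconditioning+FCCP 2 and 4 without FCCP 3. Over single libraries left out, 3848 to 7113 of all genes were called. A term for the library set ended the calls of POLR1B (0.73), NOP2 (1.17) and UTP15 (0.97), and neither set held 2 libraries of both groups. Without control 3, FCCP 1 and preconditioning+FCCP 3, 20 members were called (16 higher, 4 lower), beside 53.9% of all genes, and the change of RRN3 was 1.27.

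**Figure D4:**
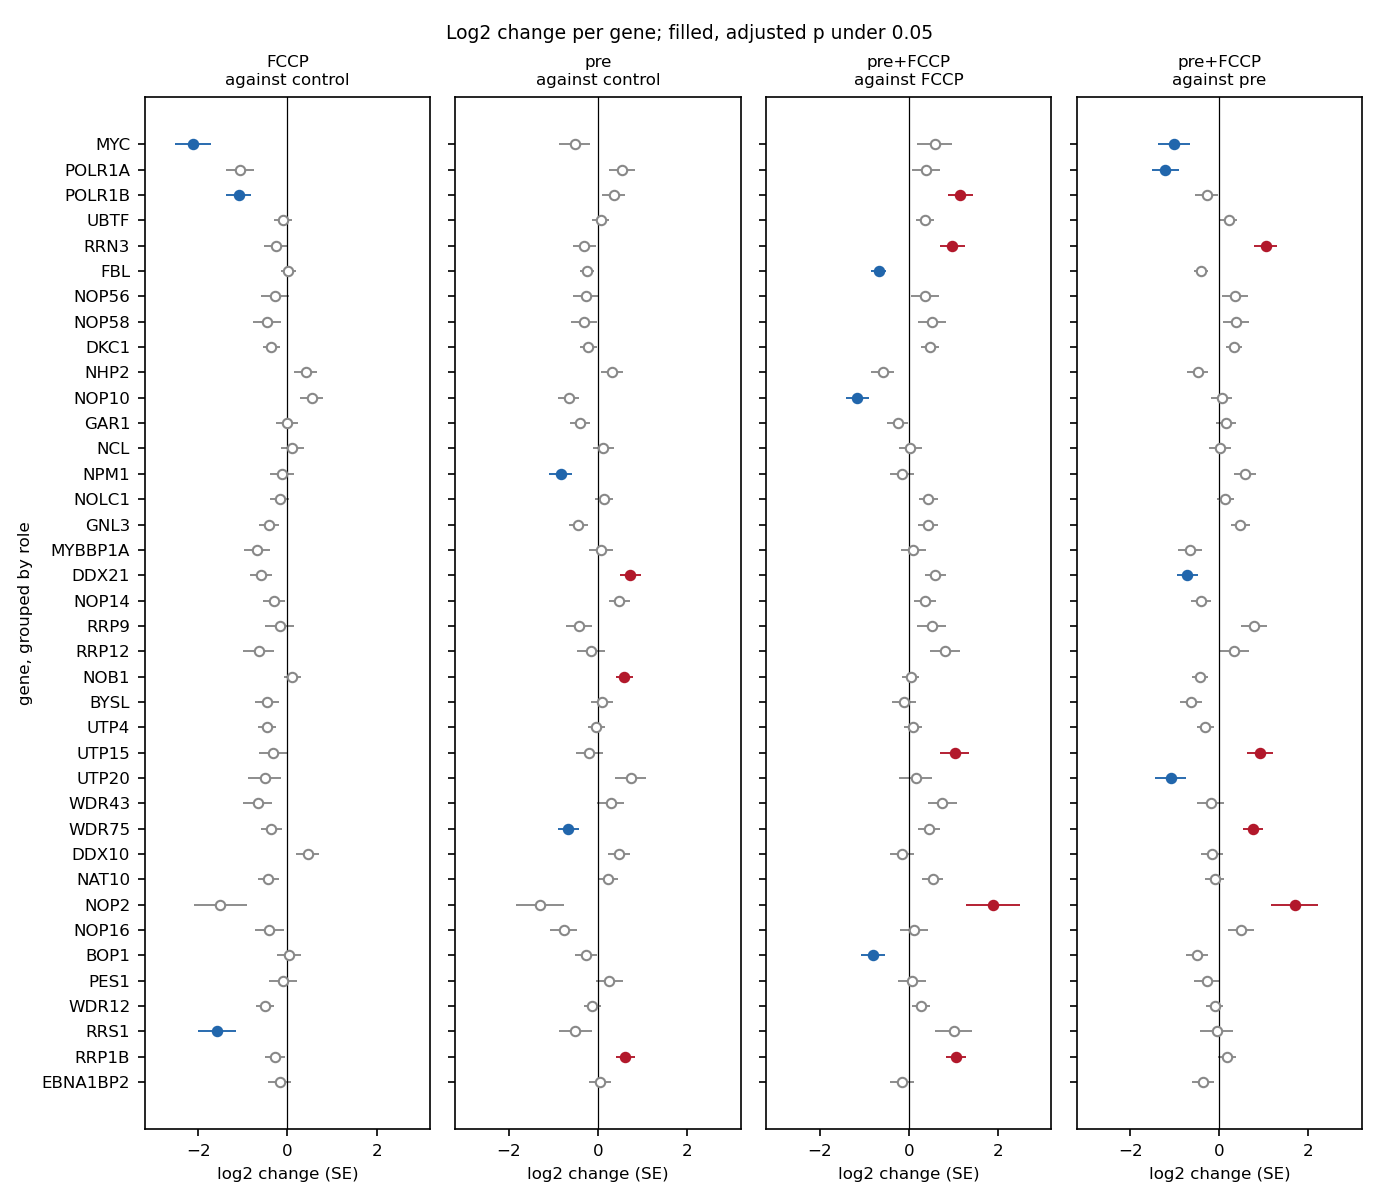
Log2 change of each member with its standard error in the 4 comparisons between groups, members ordered by role; filled points passed an adjusted p under 0.05. In FCCP against control 31 of 38 members lie below 0. The median is 0.01 for the 37 members tested within the control and FCCP libraries of high multiple alignment, which leave out control 3. For all 38 it is -0.27 without control 3, FCCP 1 and preconditioning+FCCP 3. In preconditioning+FCCP against FCCP 29 of 38 lie above 0.

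In preconditioned cells FCCP went with less MYC, POLR1A, UTP20 and DDX21 and more RRN3, WDR75, UTP15 and NOP2. POLR1A was at 44.7, 38.9 and 27.7 CPM in preconditioning+FCCP libraries and 96.1, 91.6, 83.0 and 72.1 CPM in preconditioning libraries. The groups did not overlap, and the change was -1.21 ± 0.30 (edgeR adjusted p = 0.00486). POLR1B had -0.29 ± 0.26 and did not pass (edgeR adjusted p = 0.4). RRN3 averaged 136.3 ± 33.9 CPM in preconditioning+FCCP (SD, n = 3) and 66.4 ± 1.64 CPM in preconditioning libraries (n = 4), a change of 1.04 ± 0.25 (edgeR adjusted p = 0.00457). UTP20, a scaffold of the small subunit precursor, stood at 25.5, 27.2 and 41.0 CPM in preconditioning+FCCP, 74.9, 65.4, 63.7 and 62.1 CPM in preconditioning, 37.8, 21.5 and 24.99 CPM in FCCP and 24.999, 21.4 and 73.8 CPM in control libraries. Its preconditioning libraries lay above every FCCP library of either kind, and control 3 lay among them. UTP20 fell by 1.09 ± 0.35 on the log2 scale (edgeR adjusted p = 0.0222), and DDX21, at 123.6, 102.4 and 127.9 CPM in preconditioning+FCCP libraries, fell by 0.71 ± 0.23 against preconditioning (edgeR adjusted p = 0.022).

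WDR75 was at 82.2, 92.3 and 164.2 CPM in preconditioning+FCCP, 70.3, 69.7, 59.1 and 68.1 CPM in preconditioning, 103.8, 68.5 and 75.6 CPM in FCCP and 131.4, 94.7 and 91.7 CPM in control libraries. All 3 preconditioning+FCCP libraries lay above the 4 preconditioning libraries, and preconditioning+FCCP 3 was the highest of the 13. The change against preconditioning was 0.76 ± 0.23 (edgeR adjusted p = 0.0156). UTP15, at 39.2, 51.5 and 72.7 CPM in preconditioning+FCCP and 28.0, 31.9, 32.0 and 23.9 CPM in preconditioning libraries, rose by 0.91 ± 0.30 (edgeR adjusted p = 0.0248). NOP2 was called higher at 1.69 ± 0.52 (edgeR adjusted p = 0.0186). MYC averaged 21.5 ± 9.80 CPM in preconditioning+FCCP (SD, n = 3) and 43.3 ± 8.89 CPM in preconditioning libraries (n = 4), without overlap, and fell by 1.01 ± 0.36 on the log2 scale (edgeR adjusted p = 0.0373).

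The 8 of 38 members called, 21.1%, stood beside 39.4% of all genes in preconditioning+FCCP against preconditioning (20.2% higher, 19.2% lower), with 4 in each direction. The median change was -0.08 for the members and 0.02 for all genes, with 18 members above 0 and 20 below. With library totals alone 7 members were called higher and 4 lower. All genes then split into 3764 higher and 2601 lower, against 3383 and 3211 with TMM, and the median of all genes moved by 0.09. The abundant nucleolar proteins NCL, at 0.02 ± 0.24, and NOLC1, at 0.14 ± 0.20, were near 0, and no box C/D or box H/ACA member passed the test. GNL3, a nucleolar GTP-binding protein, and RRP9, which binds the U3 snoRNA, lay higher in every preconditioning+FCCP library than in any preconditioning library, at 0.47 ± 0.21 and 0.77 ± 0.30, without passing (edgeR adjusted p = 0.0843 and 0.05003). MYBBP1A, BYSL, NOB1, NHP2 and NOP14 lay lower without overlap, between -0.65 and -0.42, and did not pass either.

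The calls of POLR1A and RRN3 held without each library in turn. WDR75 lost its call without preconditioning+FCCP 3, where its change was 0.36, and DDX21 without preconditioning+FCCP 2. MYC lost it without preconditioning 1, 2 or 3 or preconditioning+FCCP 1 or 2, at changes of -0.73 to -1.06. UTP20 lost it without preconditioning 1 or preconditioning+FCCP 1 or 2, UTP15 without preconditioning 1 or 4 or preconditioning+FCCP 2 or 3, and NOP2 without preconditioning 1 or preconditioning+FCCP 2. The count of members called was 16 without control 3, 4 without preconditioning 1 and 3 without preconditioning+FCCP 2. Control 3 is in neither group compared here, but all libraries share 1 model. Over single libraries left out, 5027 to 7688 of all genes were called. Without control 3, FCCP 1 and preconditioning+FCCP 3, 5 members were called higher and 16 lower, beside 48.2% of all genes. Within the preconditioning libraries and preconditioning+FCCP 1 and 2, all of low multiple alignment, 20 members were called (5 higher, 15 lower), beside 54.8% of all genes. Control 3, also of low multiple alignment, was not in that fit. A term for the library set ended the calls of UTP20 (-0.85) and DDX21 (-0.60) and took WDR75 to 0.49. In the fit of the preconditioning libraries and preconditioning+FCCP 1 and 2, MYC changed by -1.34, POLR1A by -1.03, UTP20 by -1.32, RRN3 by 0.82 and WDR75 by 0.40.

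Whether the change with FCCP differed between preconditioned and other cells was tested as an interaction, which uses the same 4 groups as the comparisons above. Since each of those shares a group with another, their values are set side by side here without a test of likeness. The interaction was called for 3 of 38 members, 7.89%, all higher, beside 19.0% of all genes (9.38% higher, 9.60% lower). RRN3 had an interaction of 1.29 ± 0.37 (edgeR adjusted p = 0.0258), with a change under FCCP of 1.04 ± 0.25 in preconditioned and -0.25 ± 0.27 in other cells. WDR75 had 1.12 ± 0.34 (edgeR adjusted p = 0.0306), with changes of 0.76 ± 0.23 in preconditioned and -0.36 ± 0.25 in other cells. NOP2 had 3.19 ± 0.80 (edgeR adjusted p = 0.0129) on the few reads given above. At an unadjusted p under 0.05, 8 members were higher and 1 was lower, and no member was called lower by edgeR, by DESeq2 (6 higher) or by limma-voom (3 higher). Counts of all genes are not given here for the unadjusted threshold, DESeq2 or limma-voom.

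For MYC the interaction was 1.11 ± 0.52 and did not pass (edgeR adjusted p = 0.145), so its change of -1.01 in preconditioned cells and of -2.12 in other cells was not shown to differ. Without control 1 the interaction of MYC was 1.46 and passed (range of edgeR adjusted p over single libraries left out, 0.0393 to 0.347). RRS1 had 1.52 ± 0.56 (edgeR adjusted p = 0.0681), UTP15 1.23 ± 0.44 (0.0631 by the same test) and GNL3 0.88 ± 0.31 (0.0564). At the other end NHP2, a box H/ACA protein, had -0.90 ± 0.35 (edgeR adjusted p = 0.0818). The interaction call of NOP2 held without each library in turn, that of RRN3 ended without control 1, FCCP 2, FCCP 3 or preconditioning+FCCP 3 (1.04 to 1.22), and that of WDR75 without control 1, FCCP 2 or 3, any preconditioning library or preconditioning+FCCP 3 (0.73 without the last). The count of members called was 9 without control 3 or FCCP 1, 1 without FCCP 2 or FCCP 3 and 5 without preconditioning+FCCP 1. Without control 3, FCCP 1 and preconditioning+FCCP 3 it was 18 (8 higher, 10 lower), beside 37.3% of all genes. Over single libraries left out, 2013 to 4576 of all genes were called.

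Members with and without the E-box in the promoter window were set side by side, beside shares of all genes called of 39.4%, 35.7%, 23.6%, 19.0% and 3.52% in the 5 tests in the order given here. In preconditioning+FCCP against preconditioning, 2 of the 11 such members were called, DDX21 and UTP20, both lower, and the median change of the 11 was -0.28, against 4 higher and 1 lower and a median of 0.08 for the 20 members with an entry and no motif. In preconditioning+FCCP against FCCP, 2 of the 11 were called, NOP10 and FBL, both lower, with a median of 0.15, against 4 higher and 0 lower and a median of 0.32 without the motif. In preconditioning against control 1 of the 11, DDX21, was called higher and 0 lower by edgeR, with a median of 0.04, against 1 higher and 2 lower and a median of -0.03 without the motif. The interaction was called by edgeR for 0 of the 11, at a median of -0.13, and for 3 of the 20, all higher, at a median of 0.36. In FCCP against control edgeR called 0 of the 11 with the motif, at a median of -0.41, and 1 of the 20 without it, POLR1B, at a median of -0.31. The windows are printed above for UTP20, NOP10 and FBL, and WDR75, with no motif, changed by 0.76 in preconditioning+FCCP against preconditioning.

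In all, 16 members were called in at least 1 of the 5 tests and 22 in none: BYSL, DDX10, DKC1, EBNA1BP2, GAR1, GNL3, MYBBP1A, NAT10, NCL, NHP2, NOLC1, NOP14, NOP16, NOP56, NOP58, PES1, RRP12, RRP9, UBTF, UTP4, WDR12 and WDR43. Changes of these 22 between groups lay between -0.77, for NOP16 in preconditioning against control, and 0.82, for RRP12 in preconditioning+FCCP against FCCP. NCL averaged 967.6 ± 255 CPM in preconditioning+FCCP, 955.2 ± 119 in preconditioning, 946.2 ± 245 in FCCP and 879.5 ± 277 in control libraries (SD), and its libraries overlapped in every comparison. DKC1, the pseudouridine synthase of box H/ACA particles, averaged 155.9 ± 18.5 CPM in preconditioning+FCCP, 123.9 ± 12.7 in preconditioning, 112.2 ± 17.6 in FCCP and 144.0 ± 39.9 in control libraries. UBTF, which opens rDNA for RNA polymerase I, lay higher in every preconditioning+FCCP library than in any FCCP library but did not pass (0.37 ± 0.21, edgeR adjusted p = 0.18).

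A further 117 genes of the pathway were followed, of which 115 were tested. In FCCP against control 1 of the 115 was called, POLR1G, a subunit of RNA polymerase I, which was lower at -1.46 ± 0.33 (edgeR adjusted p = 0.0282), and the median was -0.21. That count stood beside 3.52% of all genes and was 0 to 8 without single libraries, with 8 without FCCP 1, 4 without preconditioning+FCCP 3, 3 without control 2 or 3 and 0 without FCCP 2, FCCP 3 or preconditioning 2. DESeq2 called 1 higher and 9 lower. In preconditioning against control 28 were called (5 higher, 23 lower), or 24.3%, a share close to the 23.6% of all genes. This split was not kept without control 3, where 61 were called, 31 higher and 30 lower. Control 3 was also the only control library of low multiple alignment, and the part of either in the split was not tested. Without control 1 or 2 the count was 12 and 13, without preconditioning 1 it was 18, and with a term for the library set it was 2. Among the 28 were 5 of 12 genes of the RNA exosome, which trims rRNA and other RNA, all lower, beside 13.0% of all genes called lower, with EXOSC8, EXOSC3 and EXOSC1 at -0.79 ± 0.17, -0.79 ± 0.19 and -0.69 ± 0.17 (edgeR adjusted p = 0.006 for the first). SNU13, a box C/D protein, fell by 1.11 ± 0.23 on the log2 scale and HEATR1, a small subunit factor, rose by 1.16 ± 0.34. MAX, the partner of MYC on DNA, fell by 0.65 ± 0.18, and MNT, a repressor that also pairs with MAX, rose by 0.69 ± 0.18.

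In preconditioning+FCCP against FCCP 32 of the 115 were called (23 higher, 9 lower), or 27.8%, beside 35.7% of all genes, and 17 to 48 without single libraries, with 19 without FCCP 2 and 17 without FCCP 3. Small subunit factors RRP7A and TBL3 were lower, at -1.14 ± 0.19 and -1.03 ± 0.18, and UTP23 was higher, at 0.85 ± 0.20 (edgeR adjusted p = 0.00065, 0.000863 and 0.00422). NAF1, an assembly factor of box H/ACA particles, was higher at 1.11 ± 0.22, and RUVBL2, an ATPase in snoRNP assembly, was lower at -1.01 ± 0.19. In preconditioning+FCCP against preconditioning 47 were called (30 higher, 17 lower), or 40.9%, beside 39.4% of all genes. Without preconditioning+FCCP 3 the count was 26, of which 10 were higher and 16 lower, and over single libraries left out it was 26 to 59. MXD1, a repressor that competes with MYC for MAX, rose by 2.49 ± 0.45 (edgeR adjusted p = 0.000651) and MAX by 0.88 ± 0.18, and MNT fell by 0.88 ± 0.18. EXOSC8 and EXOSC1 rose by 1.14 ± 0.17 and 1.00 ± 0.17, ZNHIT3, an assembly factor of box C/D particles, rose by 1.29 ± 0.21, and the small subunit factors TBL3 and HEATR1 were lower, at -0.91 ± 0.17 and -1.35 ± 0.34. The interaction was called for 18 of the 115 (15 higher, 3 lower), or 15.7%, beside 19.0% of all genes, with MAX at 0.98 ± 0.26 and EXOSC8 at 0.99 ± 0.25. It was 32 without FCCP 1 and 7 to 11 without control 1, FCCP 2 or 3, any preconditioning library or preconditioning+FCCP 2 or 3. Without control 3, FCCP 1 and preconditioning+FCCP 3, the counts of these genes were 33 in FCCP against control, 80 in preconditioning against control (41 higher, 39 lower), 68 and 63 in preconditioning+FCCP against FCCP and against preconditioning, and 45 in the interaction.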

How the data were processed

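Poly-A selected RNA of AC16 cells was measured in 13 libraries, grouped by the treatment in the labels. Deposited tables hold raw counts of reads for each gene. The submitters' processing notes name HISAT2, HTSeq and the build hg19, without versions. The annotation release and strand setting are not given in the sources used here, and a gene may share reads with an antisense gene that overlaps it. Summary rows were kept out of library sizes: reads outside genes were 2.13% to 5.20% of reads, ambiguous reads 11.0% to 12.4% and multiply aligned reads 3.16% to 11.5%. Exon lengths and overlaps come from GENCODE 29 on GRCh38, which is not the authors' annotation, and promoters from RefSeq.

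Counts were filtered with edgeR's default expression filter and scaled with TMM. The test was edgeR's quasi-likelihood test (edgeR 4.0.16, R 4.3.3), with group as the sole term and all 13 libraries in 1 model. P-values were adjusted by the Benjamini-Hochberg method over all 16756 genes, and calls were made below an adjusted p of 0.05. Changes are on the log2 scale, with SE. CPM per library use TMM-scaled library sizes. The scripts were tested on simulated data. The 38 members and all lists were chosen with earlier results of these data known. MYC was described in every comparison, with up to 4 called members per direction by smallest adjusted p, and up to 3 called genes per further list and direction; other members were named after their values were seen. Same-numbered libraries of different groups had correlations of deviations of -0.20 to 0.16 over 18 pairs, so the numbers were not taken to pair libraries. Alternatives were another scaling (DESeq2 size factors, library totals), another filter, DESeq2 1.42.0, limma-voom (limma 3.58.1), the compared groups alone and a replicate block. Further ones were a term for the set of libraries of high or low multiple alignment, the compared groups within 1 set, and mitochondrially encoded genes left out. A stricter threshold, each library left out, and a fit without 3 libraries (control 3, FCCP 1 and preconditioning+FCCP 3) were also used. These 3 libraries held the highest level of their group for most members. Counts from the fit without them therefore cannot decide whether the members stand out from all genes.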

Additional observations from a re-analysis of the deposited data

Results flagged for a closer look

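Among 38 members in the preconditioning group, the only group of 4 libraries, 1 had a library far from the others: NOP58, a box C/D protein, was at 77.3 CPM in preconditioning 3, while the other 3 libraries lay between 59.8 and 61.0 CPM. Chance flags about 1 group in 20. The change with FCCP was called different between preconditioned and other cells, by the interaction test of edgeR, for RRN3 (log2 1.29, adjusted p = 0.0258), NOP2 (log2 3.19, adjusted p = 0.0129) and WDR75 (log2 1.12, adjusted p = 0.0306). These were 7.89% of the members, beside 19.0% of all genes. Of 13 fits with 1 library left out, the call of RRN3 was lost in 4 and that of WDR75 in 8. Both were also lost with a replicate block. NOP2 rests on 4 to 40 reads in a library.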

How the results depend on the processing

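Counts of members called were 3 in FCCP against control (A), 5 in preconditioned against control libraries (B), 8 each in preconditioning+FCCP against FCCP (C) and against preconditioning libraries (D), and 3 in the interaction (E). Leaving out each library gave 0 to 5 (A), 0 to 15 (B), 4 to 15 (C), 3 to 16 (D) and 1 to 9 (E) members, and 142 to 893, 1506 to 6057, 3848 to 7113, 5027 to 7688 and 2013 to 4576 of all genes. Of 27 called member changes, 7 kept their call without each library and 20 lost it without at least 1, and none of the 27 changed sign under any alternative. With a replicate block the members were 1, 0, 8, 7 and 1 in A to E, beside 0.316%, 11%, 29.3%, 29.9% and 11.3% of all genes. The counts of all genes were 53 (A), 1840 (B) and 1897 (E). The replicate numbers share no stated culture or day, and the samples were not found to be paired. In D the block ended the calls of WDR75 and UTP15. At an adjusted p under 0.01 the members were 0, 0, 4, 2 and 0, and all genes 23, 1424, 3161, 4022 and 1201. With a term for the library set, members were 1, 0, 6, 8 and 5, and all genes 938, 459, 3629, 6853 and 4504. Within 1 set, members were 0 in A (26 genes) and 20 in D (54.8% of genes). The compared groups alone gave 0 (A, with 17 genes), 8 (B) and 15 (D) members. Library totals gave 1 (A), 17 (C) and 5 (E) members, beside 395, 6210 and 3137 genes. No filter gave 8 (B) and 7 (E) members, with 1078 genes in A. In A limma-voom called 1 member and 382 genes and DESeq2 1331 genes, and in E DESeq2 called 6 members. Counts of all genes are not given for the compared groups alone in B and D, no filter in B and E, or DESeq2 in E. Member counts there are not read as particular to the members. Without control 3, FCCP 1 and preconditioning+FCCP 3, members were 14, 22, 20, 21 and 18. All genes called were then 3113 (A), 8405 (B), 9276 (C) and 6421 (E), and 48.2% of genes in D. The cause of these differences was not tested. Low read numbers limit NOP2 most.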
